A study of Mus musculus with 653 samples.

Results

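The 9 genes described here, taken by name from the count table, serve haem synthesis and iron uptake: Alas1, Alad, Uros, Urod, Cpox, Ppox and Fech encode enzymes of the haem chain, Tfrc encodes the transferrin receptor through which cells import iron, and Slc25a37 encodes mitoferrin-1, which carries iron into the mitochondrion. All 9 were found among the 54195 genes of the table, and all passed the filter on low values, 1 read per 1000000 reads on genes (RPM) over all cells, which left 14573 genes. Haem is built in a chain of enzymatic steps that begins and ends in the mitochondrion, and it takes up iron in the final step. Erythroid cells make far more haem than other cells because each haemoglobin chain carries a haem group, and the fetal liver is a main site of red cell formation before birth. Hepatoblasts, the precursors of hepatocytes and bile duct cells, also need haem, mainly for cytochromes.

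The study used Smart-seq2, a method that reads full-length transcripts of single cells, to ask how uniform the cells of the embryonic mouse liver are, including cells in which Lgr5, a Wnt target and stem cell marker, is active. Embryos came from males carrying Lgr5-EGFP-IRES-creERT2, a knock-in that places GFP under the Lgr5 locus, crossed with MF1 females. Cells carrying the Liv2 surface antigen and lacking CD31 and CD45 were sorted one by one, either without regard to GFP (bulk, which can include GFP-positive cells) or as GFP-positive cells (Lgr5-GFP+). Of the 653 deposited cells, 31.1% were E10.5 bulk, 32.3% E10.5 Lgr5-GFP+, 24.3% E13.5 bulk and 12.3% E13.5 Lgr5-GFP+ cells (the last 80 cells), and the labels name no treatment. The study's methods speak of separate sorts, but the labels name no embryo, litter or sort for a cell, so each of the 4 groups counted as 1 sample and no p-value was computed. Intervals of reads and of shares cover counting error at most, and not the spread between cells, pools or embryos. PCR reads without molecular identifiers are not independent molecules, so Poisson intervals of reads are too narrow even for counting error.

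Lineages were set by marker reads, none of them from the 9 genes. A cell with more than 10 reads of Klf1, an erythroid transcription factor, was placed in the Klf1 lineage (160 cells), with more than 10 reads of Afp, a hepatoblast secreted protein, in the Afp lineage (61 cells), and with more than 10 reads of Pdgfra, a receptor of mesenchymal cells, in the Pdgfra lineage (150 cells). A further 272 cells passed none of these thresholds and 10 passed more than 1. Lineage is tied to stage and sort: the Klf1 lineage held 32 E10.5 bulk, 3 E13.5 Lgr5-GFP+ and 0 E10.5 Lgr5-GFP+ cells, its other cells being E13.5 bulk (78.6% of that group), whereas 53 of the 61 Afp lineage cells were E10.5 Lgr5-GFP+. With Klf1 itself left out, the Klf1 lineage had reads of 12 of 12 erythroid markers at a summed 7270.1 RPM (range over library pools 4669 to 9957), against 23.04 RPM in the Afp and 21.4 RPM in the Pdgfra lineage. The 9 hepatoblast markers other than Afp summed to 17549 RPM in the Afp, 309.9 RPM in the Pdgfra and 9.08 RPM in the Klf1 lineage, and 19 of the 150 Pdgfra lineage cells had more than 10 reads of at least 2 of the 10 hepatoblast markers. The 8 mesenchyme markers other than Pdgfra summed to 4042 RPM in the Pdgfra, 187.6 RPM in the Afp and 22.8 RPM in the Klf1 lineage. Leukocyte markers (7 genes) summed to 199.2 RPM in the Afp lineage, where 1 cell had more than 10 reads of at least 2 of them, and to 74.8 RPM and megakaryocyte markers (5 genes) to 73.03 RPM in the Klf1 lineage, where 5 and 12 cells had more than 10 reads of at least 2 of them. The part of markers of other cell types in the comparisons between the Afp and the other lineages was not tested. Cells held a median of 1192740 reads on genes (463347 to 2279700) and fell into 5 sets by label prefix, taken here as library pools. Globin genes summed to 5897 RPM in the Klf1, 123.9 RPM in the Afp and 129.6 RPM in the Pdgfra lineage. Fewer genes were detected in pools 1 and 2 than in pools 3, 4 and 5, at a median of 4594 against 6369 genes per Klf1 lineage cell, so values are also given by pool for pools with at least 5 cells in each group compared.

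The sequences upstream of 4 start sites are shown because they belong to the genes with the highest level per kilobase in the Klf1 lineage (Alad, Urod and Cpox) or to a start site that holds a GATA match (Cpox and Uros). RefSeq windows of 250 bases before the start site (GRCm38.p6) matched 7 of the 9 genes, in 11 windows, and were not used here for Fech and Slc25a37. Capitals mark matches, on either strand, to GATAA or GATAG where A or T precedes it, the letters bound by GATA factors, or to CCNCNCCC, the letters bound by Klf factors, and overlapping matches are marked as 1 run.
Alad, the first listed start site, chr4:62520064-62520313, minus strand, with 2 overlapping CCNCNCCC matches: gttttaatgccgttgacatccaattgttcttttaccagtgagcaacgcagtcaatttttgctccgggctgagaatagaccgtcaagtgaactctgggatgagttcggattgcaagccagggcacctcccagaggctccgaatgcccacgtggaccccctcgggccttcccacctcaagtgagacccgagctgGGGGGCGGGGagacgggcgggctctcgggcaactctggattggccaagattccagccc
Urod, chr4:116994414-116994663, minus strand, with no match: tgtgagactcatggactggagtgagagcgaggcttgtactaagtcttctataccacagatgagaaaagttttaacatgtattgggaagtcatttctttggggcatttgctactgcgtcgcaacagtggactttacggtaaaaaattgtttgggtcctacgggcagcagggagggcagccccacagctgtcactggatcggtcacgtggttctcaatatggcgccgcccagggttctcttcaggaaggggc
Cpox, chr16:58669958-58670207, plus strand, with 2 overlapping GATA matches that begin 91 bases before the start site: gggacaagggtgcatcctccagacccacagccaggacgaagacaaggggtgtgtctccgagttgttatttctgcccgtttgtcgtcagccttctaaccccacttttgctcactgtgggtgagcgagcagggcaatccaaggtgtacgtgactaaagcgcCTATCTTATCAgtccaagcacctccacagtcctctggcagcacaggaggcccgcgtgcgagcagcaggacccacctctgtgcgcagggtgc
Uros, the second listed start site, chr7:133702551-133702580, minus strand, a stretch of 30 bases with 1 GATA match that begins 68 bases before the start site: tctccctcagccTTATCAgtgacagagggc
The Alad, Urod and Cpox windows overlap no annotated exon, and the Uros stretch lies within an annotated Uros exon of another transcript. A GATA match was present in 2 of the 11 windows, against 26.5% of 32841 windows of the same length over all genes. A CCNCNCCC match was present in 7 of the 11 windows, belonging to 4 of the 7 genes, against 45.9% of all windows. A match is a run of letters and not evidence of binding, and the windows of 1 gene overlap or neighbour each other.

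Against the Afp lineage, 8 of the 9 genes were more than 2-fold higher in the Klf1 lineage and 0 were lower, where 18.9% of all tested genes were higher and 24.5% lower. The median log2 ratio of the 9 genes was 2.76, against 0.00 for all tested genes. Alas1, the housekeeping enzyme of the first step, was the exception. Within library pools, 6 of the 9 genes passed 2-fold in every one of the 4 pools that could be compared, against 3.66% of all genes. Against the Pdgfra lineage, 8 genes were higher and 1, Alas1, was lower, where 14.4% of all genes were higher and 34.1% lower, and 5 genes were higher in each of 5 pools, against 3.34%. The median of the 9 was 2.48 and that of all genes -0.28.

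**Figure D1:**
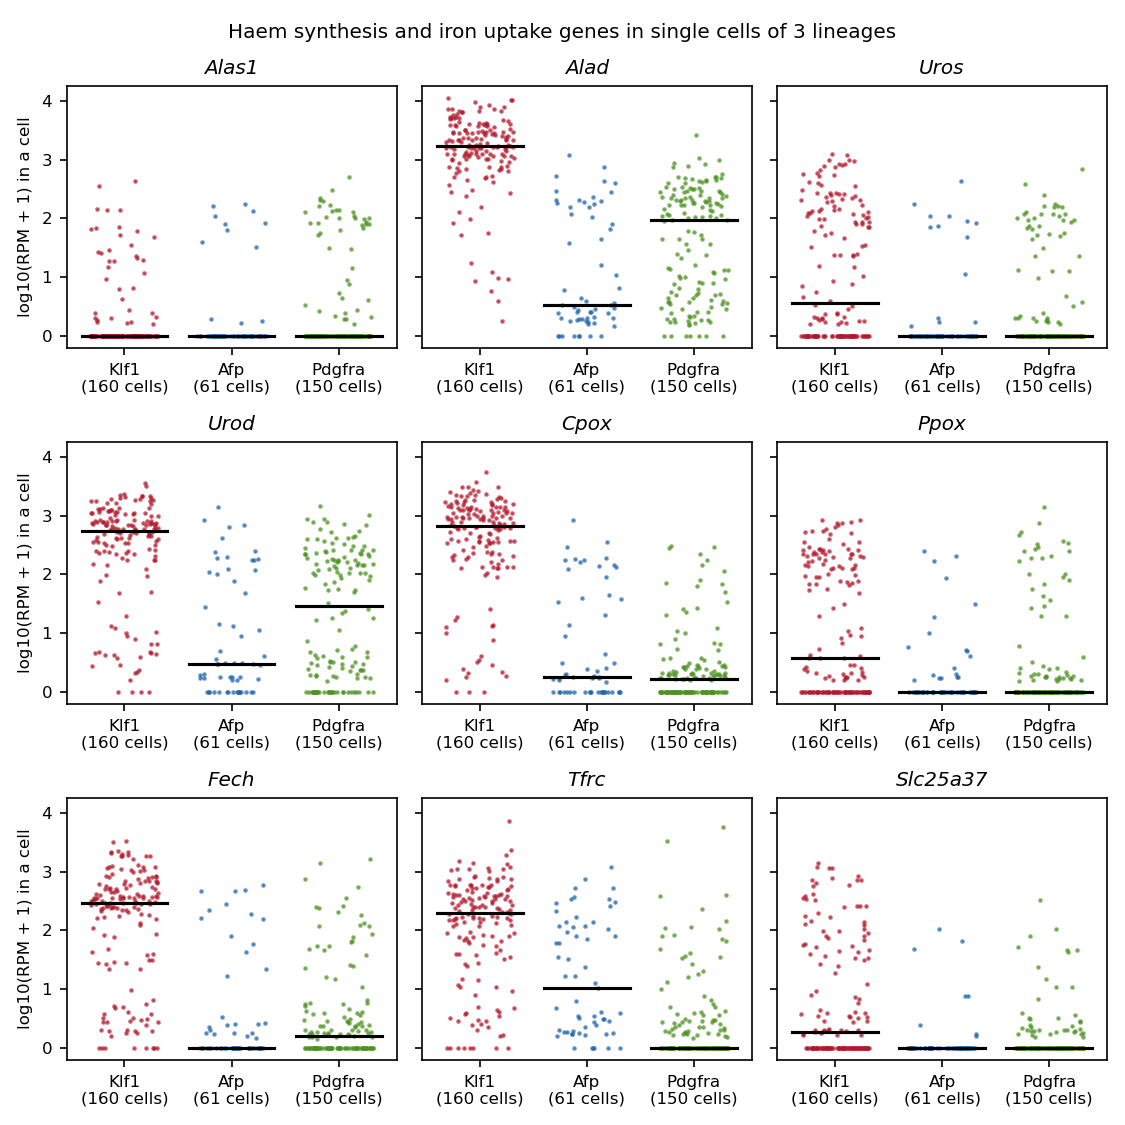
Each point is the level of a gene in a single cell, as log10(RPM + 1), in the Klf1 (160 cells), Afp (61 cells) and Pdgfra (150 cells) lineages, and horizontal lines are cell medians. The cell medians of Alad, Urod, Cpox, Fech and Tfrc in the Klf1 lineage lie above those of both other lineages, whereas the cell median of Alas1 is 0 in each lineage.

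Alad (ENSMUSG00000028393, chromosome 4, 62509169 to 62519918) encodes aminolevulinate dehydratase, which joins 2 molecules of aminolevulinate into the pyrrole of the second step. Its level in the Klf1 lineage was 2475 RPM (95% Poisson interval 2468 to 2483), with 3771, 1891, 2713, 1887 and 2152 RPM in pools 1 to 5. Single Klf1 lineage cells ranged from 0.796 to 11184 RPM with a median of 1725 RPM. The Afp lineage had 96.6 RPM (95% Poisson interval 94.4 to 98.8, cell median 2.35 RPM) and the Pdgfra lineage 174.2 RPM (cell median 94.3 RPM). No pool of the Klf1 lineage overlapped any pool of the other lineages, the highest of which was 255 RPM. The log2 ratio was 4.67 against the Afp lineage (4.11 to 4.50 over 4 pools, pool 1 having only 3 Afp lineage cells) and 3.82 against the Pdgfra lineage (2.88 to 5.41 over 5 pools).

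Uros (ENSMUSG00000030979, chromosome 7, 133686243 to 133710072) encodes uroporphyrinogen III synthase, which closes the ring, and Urod (ENSMUSG00000028684, chromosome 4, 116989965 to 116994413) encodes the decarboxylase that follows it. Urod had 663 RPM in the Klf1 lineage (447 to 836 RPM over pools, cell median 557 RPM), 97.2 RPM in the Afp lineage and 137.4 RPM in the Pdgfra lineage. Its log2 ratios were 2.76 and 2.26, and every pool lay above 2-fold in both. Uros was less abundant, at 129.6 RPM in the Klf1 lineage (73.3 to 210.01 RPM), 19.6 RPM in the Afp lineage and 27.4 RPM in the Pdgfra lineage. Reads of Uros were spread unevenly, since the median Klf1 lineage cell had 2.64 RPM and the highest 1241 RPM. The log2 ratio of Uros was 2.67 (1.90 to 2.92) against the Afp and 2.20 (1.43 to 6.06) against the Pdgfra lineage.

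Cpox (ENSMUSG00000022742, chromosome 16, 58670292 to 58717636), coproporphyrinogen oxidase, differed between all 3 lineages. Its level was 872 RPM in the Klf1 lineage (95% Poisson interval 868 to 877), with 637, 734, 1379, 722.6 and 925 RPM in pools 1 to 5. The cell median was 672 RPM and the highest cell reached 5498 RPM. The Afp lineage had 50.7 RPM (40.3 to 107.4 RPM over 4 pools) and the Pdgfra lineage 14.4 RPM (1.204 to 29.2 RPM over 5 pools), so the pools of the 3 lineages did not overlap. The log2 ratio of the Klf1 lineage was 4.08 against the Afp lineage and 5.82 against the Pdgfra lineage, the largest ratio of the 9 genes in the latter comparison. Between Afp and Pdgfra lineages the log2 ratio of Cpox was 1.74 (0.79 to 4.23 over 4 pools).

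Ppox (ENSMUSG00000062729, chromosome 1, 171275990 to 171281186), protoporphyrinogen oxidase, had 110.7 RPM in the Klf1, 15.7 RPM in the Afp and 47.9 RPM in the Pdgfra lineage. Its log2 ratio against the Afp lineage was 2.74 (0.94 to 6.21). Against the Pdgfra lineage it was 1.19, with pools on both sides of 0 (-1.88 to 2.48), and without pool 3 it was 0.79, within 2-fold. In pool 2 the Klf1 lineage had 19.7 RPM of Ppox and the Pdgfra lineage 74.96 RPM. Ppox overlaps B4galt3 on the opposite strand, as Alas1, Cpox and Slc25a37 overlap 4930500F10Rik (Alas1), Gpr15 (Cpox) and both Gm31748 and Gm27223 (Slc25a37), and since the counting is not stated to use strand, reads of the shared bases cannot be told apart.

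Fech (ENSMUSG00000024588, chromosome 18, 64452914 to 64490251), ferrochelatase, inserts the iron and ends the chain. The Klf1 lineage had 467 RPM, with 603, 165.4, 694, 461 and 343 RPM in pools 1 to 5 and a cell median of 293 RPM. The Afp lineage had 56.1 RPM and the Pdgfra lineage 50.6 RPM, with cell medians of 0 and 0.590 RPM. The log2 ratio of Fech was 3.04 (1.82 to 3.68) against the Afp and 3.18 (-0.15 to 4.48) against the Pdgfra lineage. Pool 2 held the lowest of these, where the Klf1 lineage had 165.4 RPM of Fech and the Pdgfra lineage 183.8 RPM.

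The iron genes followed the enzymes with different margins. Slc25a37 (ENSMUSG00000034248, chromosome 14, 69241848 to 69285112) had 96.1 RPM in the Klf1 lineage (30.98 to 153.7 RPM over pools), 3.89 RPM in the Afp and 4.43 RPM in the Pdgfra lineage, and its log2 ratios were 4.31 (2.76 to 6.08) and 4.16 (2.599 to 6.40). The reads were spread unevenly, since the median Klf1 lineage cell had 0.856 RPM and the highest 1419.6 RPM. Tfrc (ENSMUSG00000022797, chromosome 16, 32608920 to 32632794) had 346 RPM in the Klf1 lineage (214 to 478 RPM, cell median 193.3 RPM) and 110.8 RPM in the Afp lineage (44.9 to 218 RPM), and these pool ranges met. Its log2 ratio against the Afp lineage, 1.63 (0.67 to 2.23), was the smallest of the 8 genes that passed. In the Pdgfra lineage Tfrc had 61.03 RPM but a cell median of 0 RPM, and a single cell held 45.97% of the reads. Leaving out the cell with the most Tfrc reads from each lineage moved the log2 ratio from 2.48 to 3.19.

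Alas1 (ENSMUSG00000032786, chromosome 9, 106233455 to 106248654) had 11.7 RPM in the Klf1 lineage, 13.1 RPM in the Afp lineage and 25.98 RPM in the Pdgfra lineage, and was low throughout, with a cell median of 0 RPM in all 3. Its log2 ratio was -0.15 (-2.04 to 1.37) against the Afp lineage and -1.09 (-1.80 to 1.55) against the Pdgfra lineage, so pools lay on both sides of 0 in both comparisons. The first passed 2-fold as lower without pool 2 (-1.06) and as higher in pools 1 and 2 alone (1.02). The second ratio fell within 2-fold without pool 3 (-0.86) or pool 4 (-0.84), with TMM scaling of the summed libraries (-0.85) and with cells thinned to 100000 reads (-0.85), and passed as higher in pools 1 and 2 alone (1.36). Alas2, the erythroid enzyme of the same step, was listed at 0 in every cell, as were 25903 genes of the table, and nothing was read from it.

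**Figure D2:**
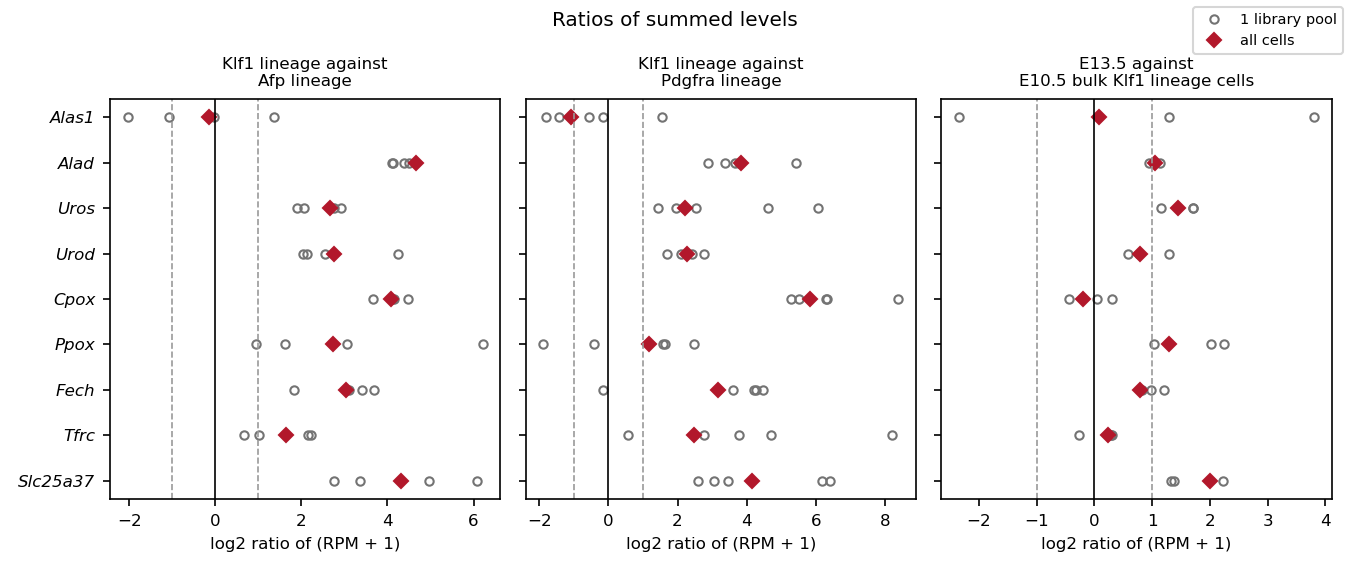
Log2 ratios of summed levels (RPM + 1) for the Klf1 lineage against the Afp and Pdgfra lineages and for E13.5 against E10.5 bulk Klf1 lineage cells, where diamonds use all cells, circles are single library pools with at least 5 cells in each group, and dashed lines mark 2-fold. Alad, Uros, Urod, Cpox and Slc25a37 lie to the right of 2-fold in every pool of both lineage comparisons, whereas Alas1 spreads to both sides of 0.

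Because the lineages differ in stage and sort, the comparison was repeated in E10.5 bulk cells alone, a choice made after seeing the data (32 Klf1, 6 Afp and 76 Pdgfra lineage cells). The log2 ratio of the Klf1 to the Afp lineage was then 4.39 for Alad, 5.51 for Urod, 5.23 for Cpox, 5.11 for Tfrc and 4.37 for Slc25a37. Uros passed at 1.27, down from 2.67 over all cells. Alas1 (0.59), Fech (0.72) and Ppox (0.84) were within 2-fold. Against the Pdgfra lineage within E10.5 bulk the ratios of Alad, Uros, Urod, Cpox, Fech, Tfrc and Slc25a37 were 2.96, 1.41, 1.64, 6.41, 2.45, 1.501 and 3.05, and those of Ppox and Alas1 were -0.15 and -0.07. E13.5 offered 0 Afp lineage bulk cells, so lineage and stage cannot be told apart there.

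Between the Afp and Pdgfra lineages 7 of the 9 genes were within 2-fold. Cpox was more than 2-fold higher and Ppox (log2 ratio -1.55, -4.64 to 0.04 over pools) more than 2-fold lower in the Afp lineage, where 44.1% of all genes passed 2-fold in either direction, and 0 of the 9 passed in every pool, against 8.97%. Of the other 7 genes, Tfrc (0.85) and Alas1 (-0.94) lay nearest to the threshold. These calls turned on single pools. Without pool 2 the log2 ratio of Ppox was -0.87, that of Tfrc 2.75 and that of Fech 1.27. When pool 3 was left out, that of Alas1 was -1.67 and that of Slc25a37 -1.27. Without pool 1 Alas1 was -1.32.

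Shares of cells with more than 10 reads were highest in the Klf1 lineage for 8 of the 9 genes, in pools 1 and 2 as in pools 3, 4 and 5, but differed strongly between these pools. The same share over all genes was not computed, so this count has no background beside it. In pools 3, 4 and 5, 98.1% of Klf1 lineage cells (95% Clopper-Pearson interval 93.4 to 99.8%) had more than 10 reads of Alad, against 68% of Afp lineage cells (46.5 to 85.1%) and 80.4% of Pdgfra lineage cells. In pools 1 and 2 the shares were 92.5%, 19.4% and 37.7%. For Cpox they were 98.1%, 56% and 18.6% in pools 3, 4 and 5, and 75.5%, 13.9% and 1.89% in pools 1 and 2. Within the Klf1 lineage the shares of 2 scarcer enzymes differed most between these pools in percentage points: Uros was over 10 reads in 7.55% of Klf1 lineage cells of pools 1 and 2 and in 64.5% of those of pools 3, 4 and 5, and Ppox in 11.3% and 59.8%. The other lineages had differences of like size, with Urod over 10 reads in 20.8% and 73.2% of Pdgfra lineage cells and Tfrc in 27.8% and 80% of Afp lineage cells. Tfrc was over 10 reads in 95.3% of Klf1 and 80% of Afp lineage cells of pools 3, 4 and 5, intervals that met (89.4 to 98.5% and 59.3 to 93.2%), but in 23.7% of Pdgfra lineage cells. Alas1 was over 10 reads in 18.7%, 32% and 30.9% of Klf1, Afp and Pdgfra lineage cells, with intervals that overlapped. Cells are not replicates and share pools, stage and sort, so overlap or separation of such intervals does not test a difference between lineages. Reads per cell were similar between the pools (1148240 and 1057537 median reads in the Klf1 lineage), and the cause of the difference in detection was not tested.

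**Figure D3:**
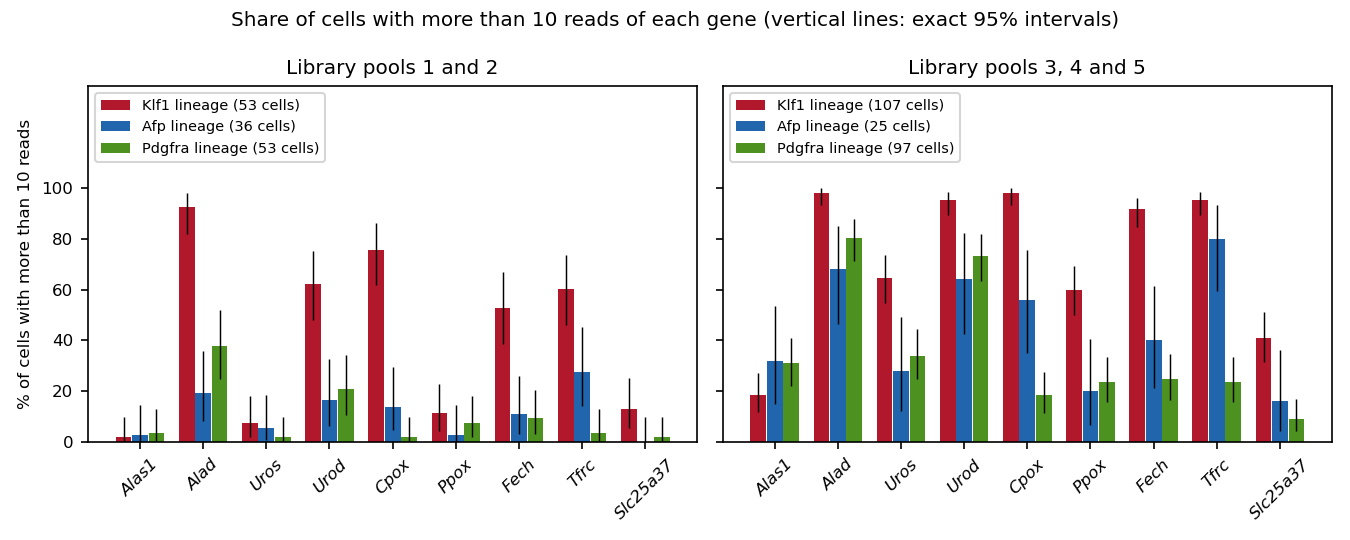
Bars give the percent of cells with more than 10 reads of each gene in the Klf1, Afp and Pdgfra lineages, for library pools 1 and 2 on the left and pools 3, 4 and 5 on the right, and vertical lines are exact 95% intervals. Cpox is over 10 reads in 98.1% of Klf1 lineage cells of pools 3, 4 and 5 and in 75.5% of those of pools 1 and 2.

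More of the genes were over 10 reads in a Klf1 lineage cell than in other cells. A median of 6 of the 9 genes (0 to 9) had more than 10 reads in a Klf1 lineage cell, against a median of 2 in each of the other lineages and in the unassigned cells. All 6 enzymes after Alas1 were over 10 reads in 47 of 160 Klf1 lineage cells (29.4%, 95% Clopper-Pearson interval 22.5 to 37.1%), 0 of 61 Afp lineage cells and 1 of 150 Pdgfra lineage cells. Pools were not separated in these counts, and Uros passed 10 reads in only 7.55% of Klf1 lineage cells of pools 1 and 2. No like count over all genes was computed. Median genes detected per cell were 6369, 6917 and 6689 in the Klf1, Afp and Pdgfra lineages in pools 3, 4 and 5. In pools 1 and 2 they were 4594, 4853 and 4423. Within the Klf1 lineage the strongest rank correlations between members over 160 cells were 0.48 for Uros with Ppox (0.06 to 0.45 within pools), 0.46 for Ppox with Fech (0.05 to 0.64) and 0.44 for Fech with Slc25a37 (0.30 to 0.55). The correlation of Uros with Ppox over all pools was above that within any pool, and detection differed between pools.

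Compared per kilobase of exon, the Klf1 lineage levels ran from Alad at 1323 RPM per kilobase (RPKM) over Urod at 256, Cpox at 130.98, Tfrc at 55.96, Uros at 36.2, Fech at 33.8, Ppox at 24.5 and Slc25a37 at 15.95 down to Alas1 at 1.89 RPKM. Alad stood above the rest in every pool (1009 to 2015 RPKM, against 172.4 to 323 for Urod). The pool ranges of Urod and Cpox overlapped, as did each neighbouring pair from Tfrc to Slc25a37, so their order is not fixed beyond the spread of the pools. With the length of the longest transcript in place of the exon union, Fech moved up to 4th place.

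The question of stage was asked within bulk Klf1 lineage cells, of which 32 were of E10.5 and the others of E13.5. Uros, Alad, Ppox and Slc25a37 were more than 2-fold higher at E13.5 and 0 of the 9 were lower, where 11.9% of all genes were higher and 12.5% lower, and 3 passed in each of the 3 pools that could be compared, against 3.62% of all genes in either direction. Slc25a37 moved most, from 27.2 RPM at E10.5 to 112.1 RPM at E13.5 (log2 ratio 2.01, 1.32 to 2.22 over pools). Uros went from 52.6 to 145.4 RPM (1.45, 1.16 to 1.72). Ppox went from 50.7 to 126.4 RPM (1.30, 1.03 to 2.24), and without pool 3 its log2 ratio was 0.95.

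Alad went from 1342 RPM (95% Poisson interval 1330.1 to 1353) to 2791 RPM (95% Poisson interval 2782 to 2800.2), with log2 ratios of 1.06 over all cells and 0.94 to 1.15 in the pools. It stood just past the threshold and fell within 2-fold without pool 1 (0.87), without pool 4 (0.94) and without cells that had reads of 2 leukocyte or 2 megakaryocyte markers (0.97). Urod (0.80) and Fech (0.80) were within 2-fold. Cpox had 959.8 RPM at E10.5 and 836 RPM at E13.5 (-0.20, -0.44 to 0.31), within 2-fold in each pool. Tfrc (0.24) and Alas1 (0.08) were also within 2-fold, the latter with pools from -2.34 to 3.81 and a ratio of 1.37 without pool 5. The globins of these cells differed too: Hbb-bh1, an embryonic beta-type globin, had 1299.9 RPM at E10.5 and 18.7 RPM at E13.5, and Hbb-bs, an adult beta globin, 132.2 and 2755 RPM. The E10.5 sum of Hbb-bh1 rests largely on few cells, as the bins by globin level below show.

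Over all bulk cells, in which 15.8% of E10.5 and 78.6% of E13.5 cells were of the Klf1 lineage, 8 genes were more than 2-fold higher and 0 lower at E13.5, where 11.5% of all genes were higher and 32.2% lower, and 5 were in every one of 5 pools, against 1.58%. The share of Klf1 lineage cells moved with this result, so more such cells and more RNA per cell of these genes cannot be told apart in the sums. Cpox, for example, had 169.6 RPM in all E10.5 bulk cells and 719.1 RPM in all E13.5 bulk cells (2.08), against the -0.20 within the Klf1 lineage. Alad had 374 and 2443 RPM (2.70), and Slc25a37 10.6 and 99.4 RPM (3.11). Ppox passed (1.24) with pools from -2.76 to 2.84 and was within 2-fold without pool 3 (0.78). Alas1 (0.92) was the gene that did not pass, and it passed without pool 3 (1.13) or pool 4 (1.58).

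E10.5 Lgr5-GFP+ cells were compared with E10.5 bulk cells to see how the sort bears on these genes. Cpox (37.3 against 169.6 RPM, log2 ratio -2.16, -2.90 to 1.40) and Fech (37.6 against 110.5 RPM, -1.53, -2.31 to 0.06) were more than 2-fold lower in Lgr5-GFP+ cells and 0 were higher, where 21.5% of all genes passed 2-fold in either direction, and 0 passed in every pool, against 0.755% of all genes. The share of the haem and iron genes described here that passed 2-fold thus lay near that of all genes. Alad (-1.25) and Ppox (-1.45) also passed as lower without pool 1. Alad had 192.1 against 374 RPM (-0.96) and Tfrc 51.02 against 102.4 RPM (-0.99, past 2-fold without pool 3, 4 or 5, at -1.22, -1.06 and -1.13). The Lgr5-GFP+ cells included 0 Klf1 lineage cells and the bulk cells 32, and the part of these cells in the difference was not tested. In all 80 E13.5 Lgr5-GFP+ cells, Alad had 326 RPM, Urod 126.5 RPM, Cpox 132.4 RPM, Fech 65.9 RPM, Tfrc 124.1 RPM and Slc25a37 15.7 RPM, against 2443, 639, 719.1, 419, 332 and 99.4 RPM in all E13.5 bulk cells. These values leave out Alas1, Uros and Ppox, and no pool ranges or share over all genes stand beside them. Klf1 lineage cells made up 3.75% of the E13.5 Lgr5-GFP+ and 78.6% of the E13.5 bulk cells. Their part in this difference was not tested. At E13.5, 3 Lgr5-GFP+ cells were of the Klf1 lineage. Compared with the bulk cells, Uros (1.42) and Slc25a37 (1.16) were more than 2-fold higher, where 11.8% of all genes were, and Alas1 had 0 reads in the 3 cells and counted as lower, where 37.8% were. Without the cell with the most reads of the gene in each group, Uros (0.84) and Slc25a37 (-0.10) were within 2-fold, and Fech (-1.15) and Ppox (-4.64) passed as lower.

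Klf1 lineage cells were then ordered by globin level, which rises as red cell precursors fill with haemoglobin. The 160 cells were cut into 4 bins of 40 cells by the share of their reads on 10 globin genes, with medians of 63.1, 259, 1094 and 17935 RPM of globin. The lowest bin summed to 57.5 RPM of globin, below the 123.9 RPM of the Afp and 129.6 RPM of the Pdgfra lineage. The next bin, at 308 RPM, lay within the pools of those lineages, which reached 421 and 554 RPM. Between the highest and lowest bin, 7 of the 9 genes were more than 2-fold higher and 1, Alas1, was lower, where 10.4% of all genes were higher and 22.7% lower, and 5 were higher in each of 4 pools, against 0.611% of all genes. The median log2 ratio of the 9 was 1.90, that of all genes -0.08. The highest bin held 4 E10.5 bulk, 33 E13.5 bulk and 3 E13.5 Lgr5-GFP+ cells, and the lowest 6, 34 and 0.

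Alad had 1318, 1295, 2352 and 5125 RPM from the lowest to the highest bin, with a log2 ratio of 1.96 between the ends (1.46 to 2.34 over pools). The level was nearly flat over the lower bins and higher in each of the upper ones. Fech had 203.5, 276, 302 and 1141 RPM (2.48, 1.42 to 7.42) and Urod 382, 496, 565 and 1254 RPM (1.71, 1.37 to 2.20), both highest in the top bin. Slc25a37 had the largest ratio of the 9, 3.73 (1.07 to 7.65), at 23.4, 10.1, 46.1 and 322 RPM. Uros (41.8, 42.3, 187.1 and 253 RPM, 2.57, 0.05 to 3.62) and Ppox (63.2, 45.9, 104.97 and 238 RPM, 1.90, 1.57 to 3.39) were higher in both upper bins than in the lower ones.

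Tfrc did not rise step by step, with 207.8, 398, 277 and 514 RPM over the bins. Its log2 ratio between the ends was 1.30 (0.79 to 2.87) and fell to 0.87, within 2-fold, without pool 2, to 0.97 with cells cut into 3 bins and to 0.35 with 2. Cpox had 683, 801, 876 and 1147 RPM and a log2 ratio of 0.75 (0.61 to 1.83), the enzyme after Alas1 that stayed within 2-fold, though at 1.02 without pool 1, 1.02 with TMM scaling and 1.04 with cells ordered by adult globins it stood just past the threshold. Alas1 had 26.5, 4.74, 12.2 and 2.83 RPM (-2.84, -4.38 to 0.00), a range of low levels in which 20% of cells of the lowest and 7.5% of cells of the highest bin had more than 10 reads. As a description over the 160 cells, which share pools and stage, the rank correlation with globin level was 0.59 for Alad, 0.47 for Fech, 0.45 for Slc25a37, 0.43 for Urod, 0.34 for Ppox, 0.27 for Uros, 0.19 for Cpox, 0.14 for Tfrc and -0.12 for Alas1. Within single pools it ran from 0.47 to 0.74 for Alad, 0.30 to 0.66 for Fech and 0.36 to 0.67 for Slc25a37. The ranges were 0.03 to 0.80 for Urod and 0.03 to 0.56 for Ppox. Those of Uros (-0.02 to 0.57), Cpox (-0.10 to 0.46), Tfrc (-0.33 to 0.40) and Alas1 (-0.30 to 0.26) held values on both sides of 0. All 6 enzymes after Alas1 were over 10 reads in 22.5, 12.5, 27.5 and 55% of cells from the lowest to the highest bin. Pools were not separated in these shares, and no like share over all genes was computed.

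**Figure D4:**
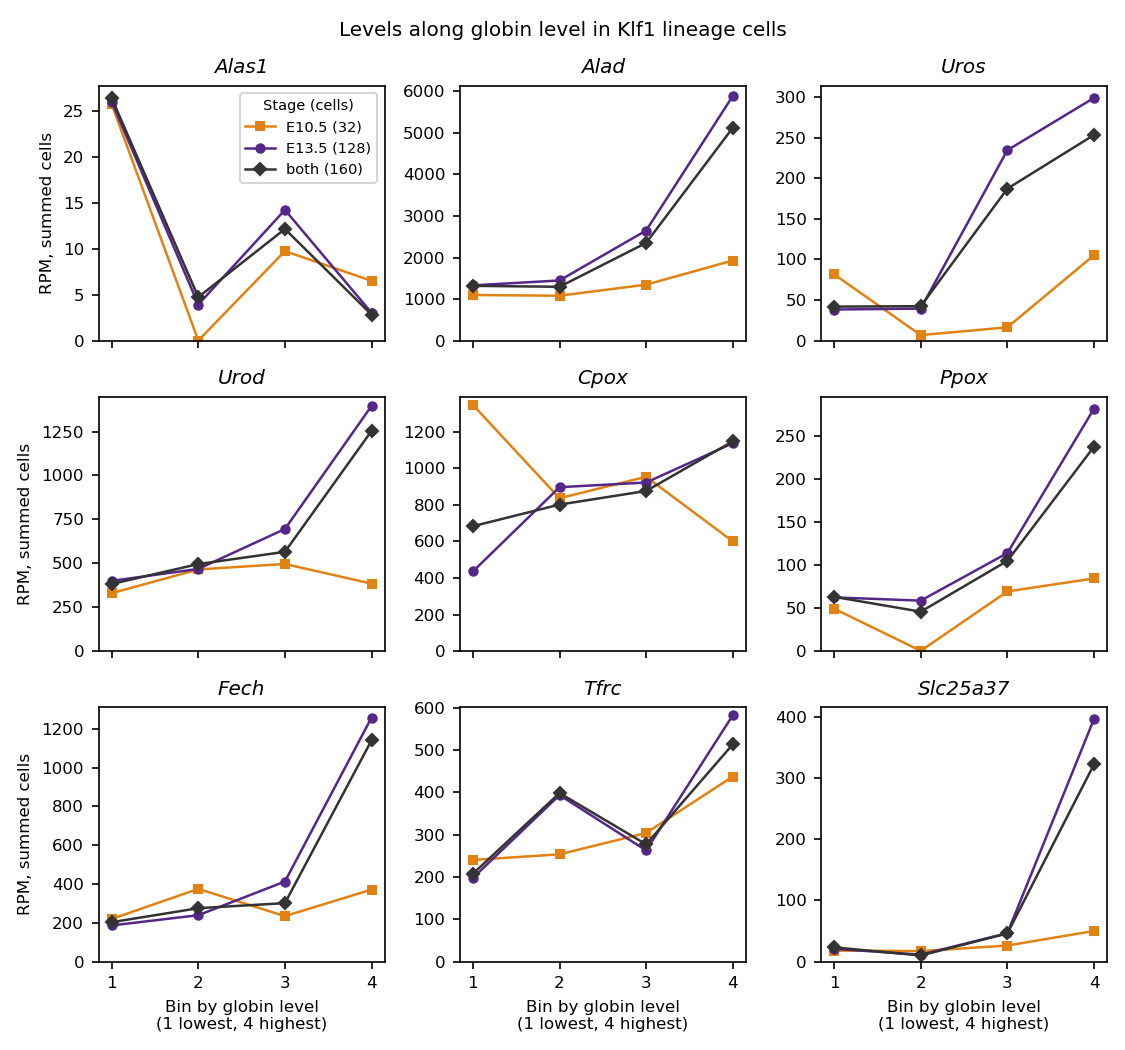
Level in RPM of each gene, summed over cells, in bins of Klf1 lineage cells ordered by globin level (1 lowest, 4 highest), cut separately for all 160 cells, for E13.5 cells and for 32 E10.5 cells. In E13.5 cells each gene but Alas1 is highest in bin 4, whereas in E10.5 cells Cpox is lower in bin 4 than in bin 1.

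The bins were also cut within each stage. In E13.5 cells the log2 ratio between the highest and lowest bin was 2.15 for Alad, 2.75 for Fech, 4.17 for Slc25a37 and 1.38 for Cpox, and 8 of the 9 genes were more than 2-fold higher and 1, Alas1 (-2.75), was lower, where 11.9% of all genes were higher and 37.9% passed 2-fold in either direction. In 32 E10.5 cells, 8 to a bin, 3 of the 9 genes passed 2-fold, Slc25a37 (1.43) as higher and Alas1 (-1.83) and Cpox (-1.16) as lower, where 15.4% of all genes were higher and 16.8% lower, so these shares of the 9 lay near the background. Alad was 0.81, Fech 0.75 and Urod 0.22 in these cells. The difference between the stages was not tested, and the bins of E10.5 rest on few cells. In their summed reads the embryonic globin Hbb-bh1 led at 1299.9 RPM, with more than 10 reads in 21 of the 32 cells. The adult globin Hbb-bs had 132.2 RPM and passed 10 reads in 29 of the 32 E10.5 cells.

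Of the other genes of haem and iron handling in a list of 47, 42 had reads and 5 (Alas2, Abcb10, Abcb6, Trf and Hamp) were listed at 0 in every cell. In the Klf1 lineage 18 of the 42 were more than 2-fold higher and 4 lower than in the Afp lineage, a median of 0.83, and 22 were higher and 3 lower than in the Pdgfra lineage, a median of 1.17. Of all tested genes, 18.9% were higher and 24.5% lower against the Afp lineage, and 14.4% and 34.1% against the Pdgfra lineage. Those with the largest log2 ratios against the Afp lineage on the same side in every pool were Steap3 (6.95), which reduces endosomal iron, Tfr2 (5.14), the second transferrin receptor, Hebp1 (5.07), a haem-binding protein, and Blvrb (4.22), biliverdin reductase B. Tspo (2.89), Tmem14c (2.40) and Slc25a38 (2.19), which serve porphyrin or glycine transport at the mitochondrion, were also higher, as was Flvcr1 (1.85), a haem exporter. Hpx, the secreted haem scavenger haemopexin, was lower in the Klf1 than in the Afp lineage (-7.03). Against the Pdgfra lineage, Fth1 (2.34), ferritin heavy chain, and Glrx5 (2.19), an iron-sulphur cluster factor, were among the higher genes. From the lowest to the highest globin bin 19 of the 42 were higher and 6 lower, with Hebp1 (2.20) and Blvrb (1.83) among the higher and Flvcr1 (-2.03) and Pcbp1 (-1.29), an iron chaperone, among the lower. Of all tested genes, 10.4% were higher and 22.7% lower, so the share of the 42 that was lower did not exceed that of all genes.

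The genes most alike to each member were found by Pearson correlation of log2(RPM + 1) over 17 units of lineage, stage and pool, among 9618 genes with at least 10 RPM. Alad was closest to Sphk1 (r = 0.98), Tspo2 (0.98) and Kel (0.97), Fech to Rbm38 (0.94), Alad (0.92) and Tal1 (0.91), and Slc25a37 to Tfr2 (0.96), Rfesd (0.93) and Hebp1 (0.92). Urod was closest to Gpx1 (0.96), Cpox to Pa2g4 (0.95), Uros to Crlf3 (0.94) and Tfrc to Eps15 (0.92). Ppox and Alas1 had looser neighbours, St3gal5 (0.84) and Ftx (0.87). The units share pools and differ mainly in lineage, and the values are given as a description.

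The 272 cells that passed no marker threshold held part of the signal. Of these, 48 had more than 10 reads of at least 2 erythroid markers, and in them Alad had 875 RPM, Urod 304 RPM, Cpox 199.6 RPM, Fech 174.1 RPM and Tfrc 163.2 RPM. The other 224 cells had 227 RPM of Alad, 122.3 RPM of Urod, 51.5 RPM of Cpox, 27.98 RPM of Fech and 62.1 RPM of Tfrc. Alas1 had 27.3 and 33.3 RPM in these sets, above its level in the Klf1 lineage in both.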

How the data were processed

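Smart-seq2 was run on single liver cells of mouse embryos of 2 stages. The authors aligned single-end reads with STAR 2.6.0c to GRCm38.p6, counted uniquely aligned reads per Ensembl gene with featureCounts (Subread 1.6.2), and removed poor cells. The deposited table holds these raw counts for 653 cells, with 0 columns left out. A table of normalised values that the study made with Scanpy 1.3.3 for variable genes was not used here.

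Counts were summed over the cells of a group and given as reads per 1000000 reads on all genes (RPM), a level for each group. Ratios are log2((RPM + 1)/(RPM + 1)), and a gene was called past 2-fold, over 14573 genes with at least 1 RPM over all cells. The model for replicated counts was not used, because each of 4 groups is 1 sample. Cells total 463347 to 2279700 reads. Exact Poisson (95%) intervals of summed reads and Clopper-Pearson intervals of shares were computed with scipy 1.17.1 in Python 3.11.15. The 5 library pools are the prefixes of the cell labels and served as batches. The labels do not say whether pools follow sorts or litters, and the study reports batch effects between biological replicates. TMM factors came from edgeR 4.0.16. The steps were tested on simulated counts. The members, lists and lineage rule were chosen with earlier results of these data known. Named genes are the 9 members, Alas2, and, of the other 47 haem and iron genes, up to 10 per comparison with the largest ratio on the same side in every pool; 1 further gene of the rule is not reported here. Doublets were not called, and 10 cells over more than 1 lineage threshold were left out. RefSeq windows (GRCm38.p6) gave the sequences. Alternatives were other thresholds, scalings, pseudocounts, pools and cells.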

Additional observations from a re-analysis of the deposited data

Results flagged for a closer look

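Cpox differed in direction between stages along globin level. In E13.5 Klf1 lineage cells its log2 ratio of the highest to the lowest globin bin was 1.38, with 436, 897, 922 and 1137 RPM over the bins, whereas in E10.5 Klf1 lineage cells it was -1.16, with 1347, 836, 954 and 600.4 RPM. Each E10.5 bin held 8 cells, and the difference between the stages was not tested. Between these E10.5 bins 16.8% of all genes were more than 2-fold lower. Cpox in E10.5 Klf1 lineage cells also differed by pool, with 1657, 623 and 938 RPM in pools 3, 4 and 5. Pools were not separated in the bins.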

How the results depend on the processing

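No paired analysis was possible because each group is 1 sample and no result comes from a test. The library pools, which the groups share, gave the within-pool ratios in its place. Of 1296 recomputed ratios of single genes, 1156 moved by no more than their spread over library pools, or their counting interval where no pools could be compared, 8 that had passed 2-fold changed sign and the others moved further. Counts of genes past 2-fold moved by more than 1.5 times in 19 recomputations. Passing in every pool was met by 5 genes against the Pdgfra lineage, 0 between the Afp and Pdgfra lineages, 5 between globin bins, 5 between stages over all bulk cells and 0 between the E10.5 sorts. Between the Afp and Pdgfra lineages (2 genes), the count was 2 to 4 when leaving out 1 pool, highest without pool 3, 5 in pools 1 and 2 alone, 6 in E10.5 bulk cells alone, 5 past 1.5-fold and 1 past 3-fold. Between E10.5 sorts (2 genes) it was 2 to 4 when leaving out 1 pool, 6 past 1.5-fold and 1 past 3-fold. Past 3-fold it was 1 between stages in the Klf1 lineage and 1 between E13.5 sorts, and with lineages set by any read both came to 8. For these counts at other thresholds, pools, cells and lineage rules no share over all genes is given, so they have no background beside them. Between globin bins it was 3 in E10.5 cells alone. Counting cells with at least 1 read, 8 rather than 5 genes were found in more than 50% of Klf1 lineage cells, with no share over all genes beside them. In pools 1 and 2 alone the ratio of Alas1 turned to 1.36 against the Pdgfra lineage and to 0.28 between globin bins, and that of Ppox to -1.004 against the Pdgfra lineage and to -0.998 between stages over all bulk cells. In E10.5 bulk cells alone Ppox was -0.15 against the Pdgfra lineage. Between E13.5 sorts, lineages set by any read gave Uros -1.999 and Slc25a37 -2.29, and without the cell with the most reads Slc25a37 was -0.10. The cause was not tested. TMM factors would add 0.09, 0.25, 0.19, 0.12, 0.28 and 0.15 to every log2 ratio of the Klf1 against the Afp and Pdgfra lineages, the Afp against the Pdgfra lineage, the stages in the Klf1 lineage, the globin bins and the stages in all bulk cells. Between E13.5 sorts, 5 settings left too few cells and were not run. With 1 sample a group the spread between embryos is unknown, low detection in pools 1 and 2 limits the shares of Uros, Ppox, Slc25a37 and Alas1, and 6 Afp lineage cells limit the comparison within E10.5 bulk.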
